A study of Mus musculus with 6 samples.

Results

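The genes of the core Notch pathway described here are 4 receptors (Notch1, Notch2, Notch3 and Notch4), 4 ligands (Dll1, Dll4, Jag1 and Jag2) and 2 transcriptional targets (Hes1 and Hey1). They were chosen by gene symbol, and all 10 were among the 14824 genes listed in the deposited count table and among the 13747 genes that passed the filter on low counts. Bulk RNA-seq had been performed on primary somatosensory (S1) cortex of WT mice of strain C57BL/6 (C57B6 in the sample labels) at postnatal day 21. The WS group (3 libraries) came from cortex after 8 days of daily whisker stimulation, in which the whiskers of 1 side of the snout were brushed for 15 min a day, with tissue taken 90 min after the last session. The NS group (3 libraries) received no stimulation. The study's description of the model takes the barrel cortex on the unstimulated side of the mouse as NS, but the sources do not say which NS and WS libraries share an animal, so p-values measure the spread between these 6 libraries.

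Notch receptors are single-pass membrane proteins that are bound by ligands of the Delta-like and Jagged families on a neighbouring cell. Binding leads to cleavage of the receptor by an ADAM protease and then by gamma-secretase, and the freed intracellular domain joins the DNA-binding protein RBPJ and Mastermind-like coactivators at target genes such as Hes1 and Hey1, which encode bHLH repressors. In growing vessels, DLL4 on endothelial tip cells activates Notch in neighbouring cells and limits sprouting, NOTCH4 is largely endothelial, and NOTCH3 is the receptor of pericytes and vascular smooth muscle. In neural tissue the same pathway keeps progenitors undifferentiated and acts in astrocytes. The comparison of WS with NS asks whether the RNA of these genes differed after a stimulation that the study used to induce vessel formation.

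Total counts over the listed genes ranged from 15660395 to 17276168 per library. Markers of cortical neurons were abundant in every library, with the sum of 7 markers between 5468 and 5928 TMM-normalized CPM (counts scaled to a common library total with edgeR's TMM factors), and no marker of any list was at 0. Tissue from next to the cortex varied between libraries, with the sum of 5 choroid plexus markers between 10.2 and 93.4 CPM (33.3 to 79.2 in NS and 10.2 to 93.4 in WS) and that of 6 striatal markers between 201.4 and 462.0 CPM. These ranges overlapped between NS and WS, and their part in the values below was not tested. In the same libraries, Slc16a1 and Vegfa had log2 fold changes of 1.14 and 1.40 (edgeR's quasi-likelihood test, adjusted p = 0.0036 for each). Both missed an adjusted p of 0.05 in the same test without NS replicate 2 (adjusted p = 0.0851 for each) and without NS replicate 3 (adjusted p = 0.0636 for each), while their log2 fold changes stayed between 1.04 and 1.58 with any 1 library left out.

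None of the 10 genes was called in WS against NS. Genes were called at an absolute log2 fold change above 1 together with an adjusted p under 0.05, and 4 of the 13747 genes (0.0291%) met it. The adjusted p was 0.99984 for each of the 10 (quasi-likelihood test of edgeR, Benjamini-Hochberg adjustment across the 13747 genes). Their log2 fold changes lay between -0.05 for Notch2 and 0.27 for Notch4, with 8 of 10 above 0 and a median of 0.10, beside 53.0% above 0 and a median of 0.0074 over all genes tested. The 95% intervals of the 10 folds reached from 0.789 to 1.54 at the widest, so a doubling or halving of any of these RNAs lay outside its interval. At an unadjusted p under 0.05, which 1.19% of all genes passed, 1 of the 10 was counted, namely Notch4. Counted by separation, Notch4 was again the 1 gene of the 10 whose 3 WS libraries all exceeded the 3 NS libraries, as in 3.10% of all genes, and 0 of 10 had all WS libraries below NS, as in 3.16% of all genes. DESeq2 gave 0 of the 10 at an adjusted p under 0.05.

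**Figure D1:**
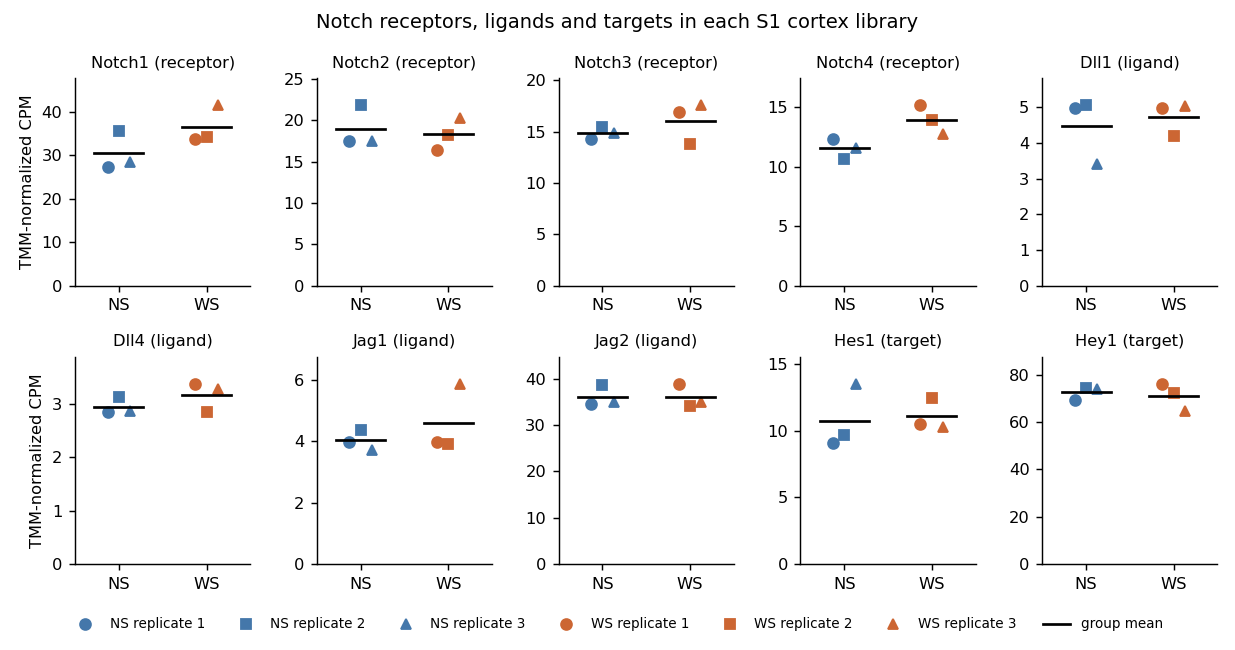
TMM-normalized CPM (vertical axes, from 0) of the 10 Notch genes in each of the 3 NS and 3 WS libraries, with the marker shape giving the replicate number and the bar the group mean. The groups overlap in 9 panels, and in the Notch4 panel the WS libraries (12.8 to 15.2) lie above the NS libraries (10.7 to 12.4).

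Notch4, a receptor largely of endothelium, was the receptor whose groups were separate. Its NS libraries held 196, 171 and 187 counts and its WS libraries 256, 225 and 202 counts. These correspond to 12.4, 10.7 and 11.6 CPM in NS and to 15.2, 13.9 and 12.8 CPM in WS, so the lowest WS library was just above the highest NS library. The group means were 11.5 ± 0.844 CPM in NS and 13.9 ± 1.20 CPM in WS (SD, n = 3 each). The log2 fold change was 0.27 (standard error 0.12, 95% interval 0.02 to 0.53, unadjusted p = 0.0384 in edgeR's quasi-likelihood test), which is a 1.21-fold difference. An exact permutation test over the libraries gave a two-sided p of 0.10, the smallest that 3 against 3 allows. The unadjusted p did not stay under 0.05 in every fit. With DESeq2 it was 0.0884. Leaving out NS replicate 2 or 3 gave 0.133 and 0.0735, leaving out WS replicate 1 or 2 gave 0.120 and 0.0932, and leaving out NS replicate 1 or WS replicate 3 gave 0.0386 and 0.0182. Over the 6 fits with 1 library left out the log2 fold change of Notch4 lay between 0.21 and 0.33.

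All 14 endothelial markers had log2 fold changes above 0 (median 0.09), of which 0 were called and 1, Pecam1, had an unadjusted p under 0.05. Without WS replicate 3, 8 of the 14 were above 0 (median 0.03), and without NS replicate 1, 11 of the 14 (median 0.05). Their summed level was 455.5, 455.8 and 516.0 CPM in NS and 526.9, 486.7 and 572.8 CPM in WS, so the groups overlapped while WS was higher in each same-numbered pair. Markers of other cell types also lay mostly above 0. Listed with the range of their median log2 fold change when any 1 library was left out, the counts above 0 were 4 of 5 tested for arterial endothelium (median 0.22, range 0.18 to 0.33), 7 of 9 for pericytes (0.10, 0.08 to 0.18) and 3 of 3 tested for smooth muscle (0.18, 0.04 to 0.33). For glia and neurons they were 10 of 10 for astrocytes (0.13, 0.08 to 0.17), 7 of 7 for the oligodendrocyte lineage (0.19, 0.04 to 0.26), 5 of 6 for microglia (0.09, 0.03 to 0.10) and 4 of 7 for cortical neurons (0.11, 0.02 to 0.09). The astrocyte count was 6 of 10 without WS replicate 3, 9 of 10 without NS replicate 3 and 10 of 10 in each other such fit. Its marker Gja1 was at 21.5 CPM in NS replicate 3 and between 182.6 and 232.8 CPM in every other library. For fibroblasts 3 of 4 were above 0 (0.23, 0.09 to 0.43). The direction itself turned when 1 library was left out in 3 lists, striatal neurons (6 of 6, median 0.24, range -0.36 to 0.44, negative without WS replicate 2), red blood cells (4 of 4, 0.05, -0.03 to 0.32, negative without NS replicate 1 and without NS replicate 2) and choroid plexus (2 of 5, -0.15, -0.91 to 0.34, positive without NS replicate 3 and without WS replicate 1). Of all markers tested in these lists, those with separate groups were Pecam1, Sox17 (arterial endothelium), Ndufa4l2 (pericytes), Rorb (cortical neurons), Olig1 (oligodendrocyte lineage) and Col1a2 (fibroblasts). Each had WS above NS, and Pecam1, Olig1 and Col1a2 had an unadjusted p under 0.05. Over all genes tested, 3.10% had all WS libraries above NS, 3.16% had all below, and 1.19% had an unadjusted p under 0.05. These single markers were picked by their values, so they are no result about a cell type. The summed microglial markers did not overlap (361.3 to 374.9 CPM in NS and 376.2 to 389.2 CPM in WS), nor did those of pericytes given with Notch3. No single microglial marker had separate groups, and Cx3cr1 was lower in WS (log2 fold change -0.11). Of the pericyte markers only Ndufa4l2 was separate, and no share over all genes was computed for such sums. The part of any of these lists in the Notch4 values was not tested beyond the endothelial share given next. Pecam1, the gene of the endothelial adhesion protein CD31, had the largest log2 fold change of the 14 endothelial markers, with 17.2, 16.3 and 19.2 CPM in NS and 22.1, 33.0 and 41.5 CPM in WS (log2 fold change 0.87, adjusted p = 0.813 in edgeR's quasi-likelihood test). In bulk tissue, more cells of a type and more RNA per cell cannot be told apart. Taken as a share of the marker sum, Notch4 stood at 2.71%, 2.34% and 2.25% in NS and at 2.88%, 2.86% and 2.23% in WS. On that scale WS was higher in pairs 1 and 2 and nearly level in pair 3, and the groups overlapped, since WS replicate 3 was the lowest of the 6 libraries. The ratio of the group means fell from 1.21 in CPM to 1.09 as a share of endothelial markers (exact permutation test, two-sided p = 0.40). With Pecam1 left out of the sum, Notch4 was at 2.82%, 2.43% and 2.34% in NS and at 3.00%, 3.07% and 2.40% in WS. On this scale WS was higher in 3 of 3 pairs, the groups still overlapped, and the ratio of the means was 1.12 (exact permutation test, two-sided p = 0.30). Both measures were added after the CPM values had been seen.

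**Figure D2:**
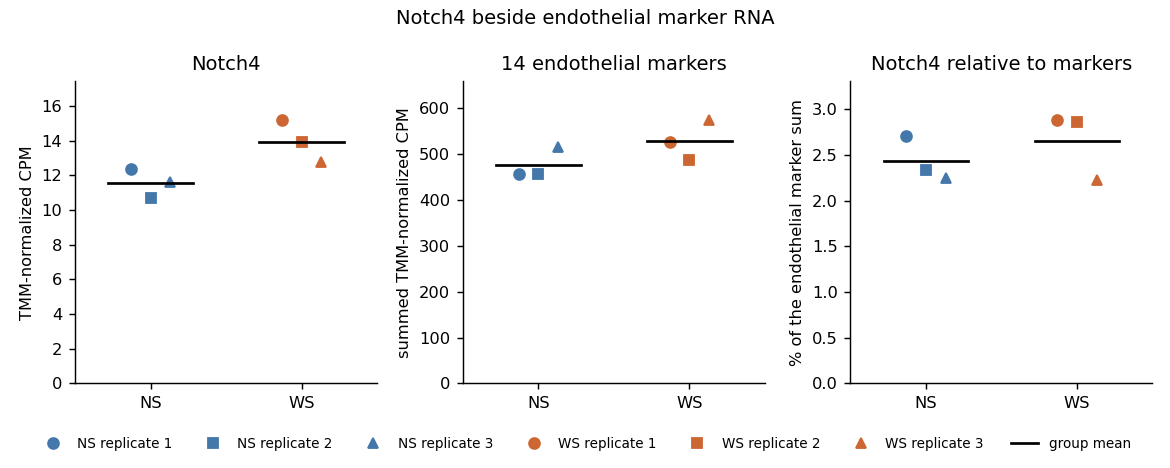
Left, Notch4 in TMM-normalized CPM. Middle, the summed CPM of 14 endothelial markers. Right, Notch4 as a percentage of that sum. Points are libraries (marker shape gives the replicate number), bars are group means, and all axes start at 0. The groups are separate in the left panel and overlap in the right panel, where WS replicate 3 is at 2.23%.

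Notch1, a receptor of neural progenitors and of endothelium, had a difference of similar size but overlapping groups. Its levels were 27.4, 35.5 and 28.5 CPM in NS and 33.7, 34.2 and 41.4 CPM in WS. NS replicate 2 lay above 2 of the 3 WS libraries. The means were 30.5 ± 4.41 and 36.4 ± 4.32 CPM (SD, n = 3 each). The log2 fold change of Notch1 was 0.26 (standard error 0.12, 95% interval -0.01 to 0.53, unadjusted p = 0.0594 in edgeR's quasi-likelihood test). In a fit blocked by replicate number the unadjusted p of Notch1 was 0.0305 and that of Notch4 0.0436, so that 2 of the 10 genes were under 0.05, as were 1.77% of all genes. In edgeR's test the log2 fold change of Notch1 was 0.38 with NS replicate 2 left out (unadjusted p = 0.0098) and 0.31 with WS replicate 1 left out (unadjusted p = 0.0330). The other 4 such fits had an unadjusted p above 0.05, namely 0.211 without NS replicate 1, 0.169 without NS replicate 3, 0.0566 without WS replicate 2 and 0.203 without WS replicate 3, where the log2 fold change was lowest at 0.16.

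Notch3, the mural cell receptor, had 14.2, 15.5 and 14.9 CPM in NS and 16.9, 13.8 and 17.6 CPM in WS. WS replicate 2 was the lowest of the 6 and the other WS libraries were the highest. The log2 fold change was 0.11 (95% interval -0.14 to 0.37), smaller than its standard error of 0.12. Over 9 pericyte markers, 7 had log2 fold changes above 0, and their sum was 271.9 to 274.3 CPM in NS and 279.1 to 322.1 CPM in WS. Their part in the Notch3 values was not tested. Notch2, the remaining receptor, had 17.5, 21.8 and 17.5 CPM in NS and 16.4, 18.2 and 20.2 CPM in WS. The highest library was from NS and the lowest from WS, and the groups overlapped (log2 fold change -0.05, 95% interval -0.32 to 0.22).

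Among the ligands, no group was separate from the other. Dll4, the tip cell ligand, was the least counted of the 10 genes, with 45, 50 and 46 counts in NS and 57, 46 and 52 in WS. At a mean of 49.3 counts, counting alone gives a coefficient of variation of 14.2%, above the 5.39% seen between the NS libraries and the 8.96% between the WS libraries. In CPM, Dll4 was 2.84, 3.12 and 2.86 in NS and 3.38, 2.84 and 3.28 in WS (log2 fold change 0.11, 95% interval -0.31 to 0.53). The interval of the fold ran from 0.807 to 1.44.

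Jag1, the Jagged ligand with known roles in arterial vessel walls, had 3.97, 4.37 and 3.73 CPM in NS and 3.97, 3.90 and 5.87 CPM in WS. The WS mean was set by WS replicate 3, and the other WS libraries lay within the NS range. Its log2 fold change of 0.18 (95% interval -0.26 to 0.63) became -0.03 without WS replicate 3. Dll1, a Delta-like ligand of neural precursors, had 4.98, 5.05 and 3.42 CPM in NS and 4.97, 4.20 and 5.05 CPM in WS. Here NS replicate 3 was the lowest library, and the log2 fold change of 0.08 (95% interval -0.34 to 0.51) became -0.08 without it. Jag2 was the most abundant ligand, with 34.6, 38.6 and 35.0 CPM in NS and 39.0, 34.2 and 35.1 CPM in WS. Its mean was 36.1 CPM in both groups, and its log2 fold change of 0.0015 had an interval from -0.21 to 0.21.

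Neither target gene differed between the groups beyond its spread. Hes1 had 9.08, 9.67 and 13.5 CPM in NS and 10.5, 12.5 and 10.3 CPM in WS. NS replicate 3 was the highest library, and the NS coefficient of variation of 22.5% was the largest of the 10 genes in that group. The log2 fold change of Hes1 was 0.04 (95% interval -0.31 to 0.40), and 0.24 without NS replicate 3 (unadjusted p = 0.134 in edgeR's quasi-likelihood test). Hey1 was measured most precisely, with a mean of 1162 counts and a counting coefficient of variation of 2.93%. It had 69.6, 74.6 and 73.8 CPM in NS and 76.3, 72.3 and 64.8 CPM in WS, and the lowest and the highest library were both from WS. The log2 fold change of Hey1 was -0.03, and its 95% interval, -0.22 to 0.16, was the narrowest of the 10, equal to a fold between 0.861 and 1.11.

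**Figure D3:**
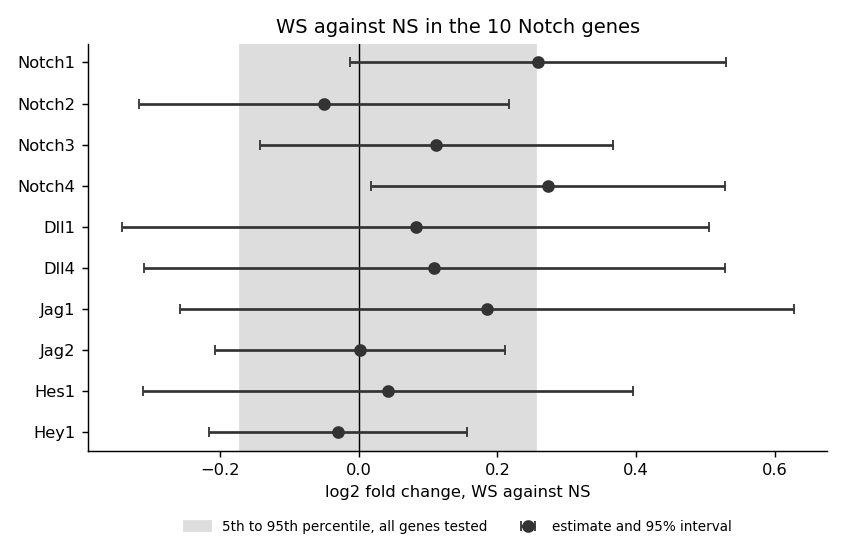
Log2 fold change of WS against NS (horizontal axis) for each of the 10 Notch genes, with points for the edgeR estimate and bars for its 95% interval. The grey band runs from the 5th to the 95th percentile of all 13747 genes tested (-0.17 to 0.26), and only the Notch4 interval (0.02 to 0.53) lies wholly on 1 side of 0.

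Levels were compared between genes as CPM per kb of annotated exon. Hey1 stood highest, at 22.3 ± 0.824 CPM per kb in NS (SD, n = 3). Hes1 (5.28 ± 1.19) and Jag2 (5.18 ± 0.320) followed at 23.7% and 23.3% of the Hey1 level and did not differ beyond their spread. The receptors came next and lay close together, with 2.14 ± 0.310 for Notch1, 1.84 ± 0.0761 for Notch3, 1.75 ± 0.230 for Notch2 and 1.43 ± 0.105 for Notch4. Of these, the NS libraries of Notch3 and Notch2 overlapped, and so did those of Notch1 and Notch2, whereas each Notch1 library was above each Notch3 library and each Notch2 library above each Notch4 library. The lowest levels were those of Dll1 (1.06 ± 0.219), Dll4 (0.763 ± 0.0411) and Jag1 (0.690 ± 0.0556), of which each overlapped the next. In WS the order was the same except that Notch4 (1.73 ± 0.149) and Notch2 (1.70 ± 0.176) changed places, well within their spread. Per kb of coding sequence in place of exon, 6 of the 10 genes kept their place in NS, while Notch2 moved above Notch3 and Dll1 above Notch4. On that scale Hes1 and Jag2 stood at 15.7% and 11.9% of Hey1, and their NS libraries no longer overlapped (lowest Hes1 library 10.7, highest Jag2 library 10.3), so the likeness of these levels depends on the length used. Summed per kb, the 4 receptors gave 6.83, 7.75 and 6.91 in NS and 7.86, 7.52 and 8.54 in WS, and the 4 ligands, mostly Jag2, gave 7.57, 8.30 and 7.21 in NS and 8.33, 7.31 and 8.10 in WS. Both sums overlapped between the groups.

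**Figure D4:**
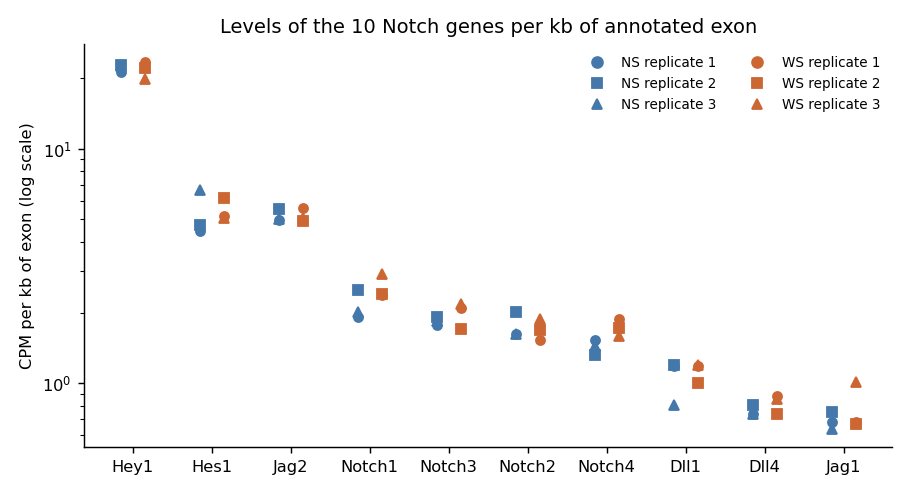
CPM per kb of annotated exon (vertical axis, log scale) of the 10 Notch genes in order of their mean NS level, with 1 point for each library. Hey1 lies between 19.9 and 23.4, Hes1 and Jag2 between 4.46 and 6.65, the receptors between 1.32 and 2.91, and Dll4 and Jag1 below 1.01.

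A further 54 genes of the pathway were all tested and 0 were called, or under an unadjusted p of 0.05. Their log2 fold changes had a median of 0.03, with 37 above and 17 below 0, and lay between -0.20 for Aph1b and 0.36 for Dlk1. In 2 of them (Adam17 and Crebbp) the WS libraries all lay above NS, beside 3.10% of all genes, and in 1 (Aph1b) all below, beside 3.16%, so these counts are near the background and no result about the pathway. Of the receptor-cleaving enzymes, 5 of 10 were above 0. Aph1b, a subunit of gamma-secretase, had 26.1, 27.8 and 27.0 CPM in NS and 21.1, 24.8 and 24.6 CPM in WS (log2 fold change -0.20, 95% interval -0.41 to 0.02). The ADAM protease gene Adam17 had 15.1, 16.9 and 15.6 CPM in NS and 17.6, 17.1 and 19.2 CPM in WS, with a log2 fold change of 0.18 (95% interval -0.05 to 0.40). For Adam17 the highest NS library (16.9) and the lowest WS library (17.1) nearly met.

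All 5 of the further target or target-like genes had log2 fold changes above 0, between 0.04 for Nrarp, a feedback inhibitor of Notch, and 0.16 for Heyl, a bHLH repressor of the Hey family. Heyl had 6.11, 5.99 and 4.97 CPM in NS and 7.05, 5.75 and 6.25 CPM in WS. Hes5, a classical Notch target of neural progenitors and glia, had 16.2, 16.1 and 11.5 CPM in NS and 20.02, 15.8 and 11.6 CPM in WS, and its replicate 3 was the lowest in each group. None of these 5 had separate groups. Among 6 other or atypical ligands, Dlk1, a Delta-like protein without the canonical receptor-binding domain, had the largest log2 fold change of the 54 (0.36, 95% interval -0.26 to 0.99) at only 1.86 ± 0.451 CPM in NS and 2.39 ± 0.726 CPM in WS (SD, n = 3 each). Of the receptor-glycosylating enzymes, 4 of 5 were above 0, and the Fringe enzyme gene Mfng had a log2 fold change of 0.25 (95% interval -0.26 to 0.76).

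In the nuclear activator complex, 7 of 9 genes were above 0. Rbpj, the DNA-binding subunit, had a log2 fold change of 0.01 (95% interval -0.27 to 0.28). Crebbp, a histone acetyltransferase recruited by many activators, had 56.6, 58.5 and 57.8 CPM in NS and 61.7, 61.7 and 67.2 CPM in WS (log2 fold change 0.14, 95% interval -0.03 to 0.31). Its WS libraries were above NS by a small step. The corepressors had 6 of 7 above 0, with Ctbp1 at 0.09, the ubiquitin ligases of ligand endocytosis 2 of 4, with Neurl1b at 0.07, and the genes of receptor turnover and trafficking 4 of 8, with Dtx3 at 0.06. In each of these 3 groups the log2 fold changes lay between -0.06 and 0.11.

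**Figure D5:**
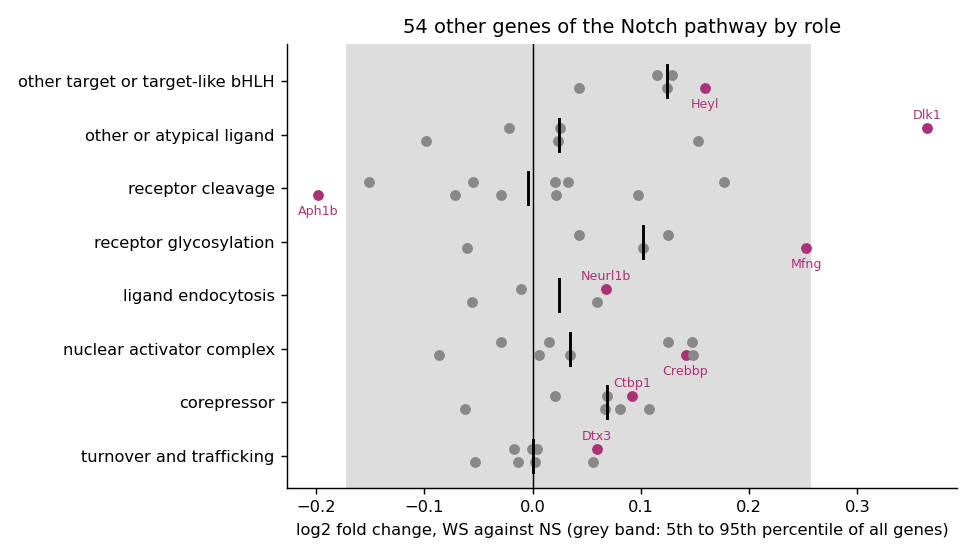
Log2 fold change of WS against NS (horizontal axis) of 54 other Notch pathway genes in rows by role. Points are genes, black bars are the median of each row, purple points with names are the gene of smallest p in each row, and the grey band is the 5th to 95th percentile of all genes tested (-0.17 to 0.26). Only Aph1b (-0.20) and Dlk1 (0.36) lie outside the band.

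Promoter windows of RefSeq (GRCm38.p6, from 250 bases before to 50 bases after the start) were matched for 8 of the 10 genes, in 9 windows. No window was matched for the targets Hes1 and Hey1, so only receptors and ligands were searched. The core letters of the RBPJ site, TGGGAA on either strand, were in the window of 0 of the 8 genes and in 25.6% of all 32851 promoters, which says only that these letters are not in these windows. The letters of the AP-1 site, TGANTCA, which is the same on both strands, were in the windows of 2 of the 8 genes, Notch4 and Dll1, and in 7.81% of all promoters. AP-1 is the dimer of Fos and Jun proteins, immediate early factors of active neurons. The core of the hypoxia response element, ACGTG on either strand, was in the window of 1 of the 8, Notch3, and in 19.6% of all promoters. The stretches of Notch4, the receptor whose groups were separate, and of Dll1, whose groups overlapped, are shown with the AP-1 letters in capitals, 5′ to 3′ on the strand of the gene.

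Notch4 (chr17:34564168-34564297, plus strand): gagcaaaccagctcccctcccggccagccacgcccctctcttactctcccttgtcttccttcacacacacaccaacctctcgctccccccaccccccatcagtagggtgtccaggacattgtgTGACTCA

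Dll1 (chr17:15376972-15377101, minus strand): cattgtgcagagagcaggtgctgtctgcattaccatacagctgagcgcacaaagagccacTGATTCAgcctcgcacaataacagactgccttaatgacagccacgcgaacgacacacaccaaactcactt

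The letters began 4 bases before the RefSeq start of Notch4 and ran past it, and they began 109 bases before that of Dll1. A match of letters is a description of the window and not a measured site.

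In GENCODE M21 (GRCm38, the assembly of mm10), Notch4 spans 34564268 to 34588503 on chromosome 17 and Notch1 spans 26457903 to 26516663 on chromosome 2. The AP-1 letters of Notch4 (34564291 to 34564297) therefore lie after the GENCODE start, inside the annotated gene. Annotated exons of Notch1, Notch3, Dll1 and Dll4 share bases with noncoding genes on the opposite strand, 1068 of them between Notch1 and 0610009E02Rik, and those of Notch2 share 541 bases with Gm42820 on its own strand. The sources used here do not say whether counting used strand, so reads of these partners could be among the counts. The exons of Notch4, Jag1, Jag2, Hes1 and Hey1 share no base with another annotated gene.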

How the data were processed

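S1 cortex libraries were prepared for a DNBseq instrument. Reads of rRNA and of low quality were discarded by the authors before alignment with HISAT2. The submitters' processing notes name the build mm10, and the counting tool is not given in the sources used here. Per gene, the authors deposited an estimated count averaged over the 6 libraries and not scaled for depth, its SD, given here as a score, and a z-score per library. The deposited columns of fold change, p-value and FDR, and a table of genes by p-value, hold the authors' own comparison and were not used. The third WS column carries an additional letter and was read as WS replicate 3, because the deposited WS mean includes it.

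Counts of a library were taken as mean plus z-score times SD and rounded. All 60 values of the 10 genes were whole within the rounding of the deposited values, at most 0.0456 counts, as were 88.5% of the values of all genes with a rounding uncertainty under 0.1 count (4.53% by chance). The design had assumed deposited counts, and its count test was run on these values with edgeR 4.0.16 in R 4.3.3 (TMM, filterByExpr, quasi-likelihood F test, Benjamini-Hochberg adjustment over 13747 genes). The test was also run on simulated counts, with changes larger than any seen in the 10 genes. That run says nothing about changes of the size seen in them. SE and 95% intervals come from the fit to the 6 libraries. Single genes were also compared by exact permutation over libraries (SciPy 1.17.1). Lengths come from GENCODE M21. Alternatives were RLE and upper-quartile scaling, no filter, DESeq2 1.42.0, the replicate block, each library left out, and other thresholds.

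Deviations from the group mean correlated between libraries of equal number, with r = 0.342, 0.228 and 0.124 (Pearson, across 13747 genes, not independent replicates). The numbers come from the sample titles. They were therefore taken as pairs, although the sources do not tie numbers to animals and the third r is close to the limit of 0.1 set for pairing (0.104 to 0.130 with prior counts of 10 to 0.5 in the log2 CPM, tried after seeing the data). The main test, its intervals and the permutation tests did not use the pairs. The pairs entered only the replicate block and the comparisons of same-numbered libraries. No 2 libraries agreed within sampling noise (lowest chi-square per degree of freedom 4.29). Counting intervals cover counting error only.

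The members, pathway list and marker lists were chosen with earlier results of these data known. Named were all 10 members, Slc16a1 and Vegfa, and in each role group of the pathway the gene of smallest p (Heyl, Dlk1, Aph1b, Mfng, Neurl1b, Crebbp, Ctbp1 and Dtx3). Adam17, Hes5, Nrarp, Rbpj, Pecam1 and the other single markers were named after their values were seen. The choroid plexus marker Ttr was not analysed here. Also examined were markers of astrocytes, the oligodendrocyte lineage, microglia, arterial endothelium, smooth muscle, fibroblasts and red blood cells. Their summed CPM was 4585 to 5933, 7123 to 11323, 361.3 to 389.2, 65.5 to 75.0, 22.2 to 35.5, 46.4 to 74.4 and 407.7 to 722.1 over the 6 libraries.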

Additional observations from a re-analysis of the deposited data

How the results depend on the processing

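The count of called genes among the 10 members and among the 54 other pathway genes was 0 under each alternative with the same thresholds, and with no fold limit. At an unadjusted p under 0.05 with no fold limit it was 1 member, 0 other pathway genes and 164 of all genes. Over all genes, 4 were called, 5 with DESeq2, 6 under the replicate block, and between 0 and 6 with 1 library left out, the 0 arising without NS replicate 2 and without NS replicate 3. The replicate block moved Notch1 to an unadjusted p under 0.05 and changed no other call on a member.

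Of 110 log2 fold changes of members under the alternatives, 97 kept their direction and 13 turned, 11 of them with 1 library left out, and the cause was not tested. Jag2, at 0.0015, was -0.0002 with RLE scaling and -0.001 with DESeq2. With 1 library left out the range was -0.127 to 0.0637 for Notch2, -0.0805 to 0.177 for Dll1, -0.0323 to 0.279 for Jag1, -0.0568 to 0.0534 for Jag2, -0.0658 to 0.242 for Hes1 and -0.0821 to 0.0325 for Hey1. Notch1 (0.16 to 0.38), Notch3 (0.04 to 0.20), Notch4 (0.21 to 0.33) and Dll4 (0.06 to 0.17) stayed above 0. The ratio of Notch4 means was 1.09 relative to the endothelial marker sum, and 1.12 with Pecam1 left out of it. Dll4, Jag1 and Dll1 had the lowest mean counts of the 10 (49.3, 69.3 and 74.5), with counting coefficients of variation of 14.24%, 12.01% and 11.59%, beside which the libraries of Jag1 in WS (24.5%) and of Dll1 in NS (20.6%) spread more.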
